A study of Homo sapiens with 9 samples.

Results

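A set of 10 imprinted genes was followed through all 9 RNA-seq libraries of the series: the count table held 62710 genes, and 10 of 10 members were matched by symbol, namely DLK1, MEG3, H19, IGF2, PEG3, PEG10, MEST, NNAT, SNRPN and PLAGL1. DLK1 had been chosen because earlier results of these data showed it low in the libraries numbered 3; its levels by replicate number are therefore given as a description, with no test, and so are those of the other 9 genes by the same number. All cells were wild-type H9, a human embryonic stem cell line. They were kept for 72 h in the pluripotency medium mTeSR1 on Matrigel-coated silicone (PDMS) plates, and then for 48 h in N2B27 medium with SB431542 and LDN. These 2 agents block SMAD signalling and steer the cells toward neuroepithelium. For 24 h more the plates were left flat (the control) or were curved, concave or convex, with both agents still present, and 3 libraries were made for each shape. The labels give each library a replicate number from 1 to 3 and do not say whether libraries of 1 shape came from separate cultures, so every p-value here reflects how far these 9 libraries vary, and part of that variation may be technical.

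Imprinted genes are expressed from the maternal or the paternal copy alone, according to DNA methylation set in the germ line. Many lie in clusters with 1 shared control region. On chromosome 14 such a region governs the paternally expressed DLK1, RTL1 and DIO3 and the maternally expressed long noncoding RNAs MEG3, MEG8 and MEG9, and the imprinting of this domain is known to vary between human pluripotent lines. DLK1 encodes a transmembrane protein related to the Notch ligands that holds back differentiation. Counts per gene do not separate the parental copies, so nothing here measures imprinting itself.

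The promoter letters of the DLK1 domain are shown because RTL1 and DLK1 had the largest log2 differences between replicate numbers among the imprinted genes tested or described here. RefSeq windows of 250 bases before a transcript start (assembly GRCh38.p14) were found for 5 of the 10 members, MEG3, H19, MEST, SNRPN and PLAGL1. In the domain, windows were found for MEG3 (chr14:100825858-100826107, plus strand), RTL1 (chr14:100903723-100903972, minus strand) and DIO3OS (chr14:101560423-101560672, minus strand), among others. Capitals mark CpG dinucleotides, the sites that DNA methylation can occupy.
MEG3: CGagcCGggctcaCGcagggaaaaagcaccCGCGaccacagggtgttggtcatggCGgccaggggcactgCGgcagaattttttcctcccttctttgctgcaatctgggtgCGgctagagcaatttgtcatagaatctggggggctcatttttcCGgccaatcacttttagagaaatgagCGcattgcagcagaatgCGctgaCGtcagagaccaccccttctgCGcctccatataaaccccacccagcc
RTL1: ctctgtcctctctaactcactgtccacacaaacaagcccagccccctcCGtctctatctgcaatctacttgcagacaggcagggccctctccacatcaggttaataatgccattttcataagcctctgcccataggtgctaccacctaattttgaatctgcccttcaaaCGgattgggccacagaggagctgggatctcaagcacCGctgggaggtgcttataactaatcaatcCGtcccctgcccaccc
DIO3OS: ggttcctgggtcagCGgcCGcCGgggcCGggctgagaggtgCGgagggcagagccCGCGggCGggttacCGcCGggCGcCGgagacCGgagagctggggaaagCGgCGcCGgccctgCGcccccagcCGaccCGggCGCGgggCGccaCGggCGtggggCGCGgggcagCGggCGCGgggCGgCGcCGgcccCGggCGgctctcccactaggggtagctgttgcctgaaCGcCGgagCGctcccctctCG
The MEG3 window held 13 CpG, the RTL1 window 4 and the DIO3OS window 38, against a median of 11 over 35116 RefSeq windows of the same length. The ratio of observed to chance-expected CpG was 0.66 for MEG3, 0.26 for RTL1 and 0.93 for DIO3OS, with a median of 0.56 over all windows. TATAAA, the core of the TATA box, was read on both strands and occurred in the MEG3 window, as in 10.7% of all windows. GGGGCCCC, a palindrome bound by PLAGL1, occurred in 1 window of the PLAGL1 gene (chr6:144008260-144008509) and in no window of MEG3, MEST, H19 or SNRPN; 1.77% of all windows held it. GGNGGCAG, a core of the CTCF motif, occurred in windows of MEST and SNRPN and in 13.4% of all windows. These matches are descriptions of letters in short windows.

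The libraries held 49420082 to 64763412 counts. SOX2 stood at 470 to 822 CPM (depth-scaled counts, here with trimmed mean of M-values, TMM, factors) and OTX2 at 257 to 318 CPM. PAX6, listed with SOX2 and OTX2 among the early neuroectoderm markers, stood at 1.09 to 7.10 CPM. The pluripotency factor POU5F1 stood at 206 to 512 CPM. The 3 libraries numbered 3 stood apart from the other 6: 4129 of 23980 genes tested, or 17.2%, passed edgeR's quasi-likelihood test at a Benjamini-Hochberg adjusted p under 0.05, 8.47% higher and 8.75% lower. Scaled by library size alone the split was 1474 higher and 2784 lower, and the median difference of all genes moved from 0.01 to -0.09 on the log2 scale. The library flat 2 stood apart in another way. Its Spearman rho between transcript length and deviation from the mean of the other libraries of its shape was -0.323 across 21940 genes. In the libraries other than flat 2 and flat 3 the rho ran from -0.080 to 0.098. Flat 3 gave 0.271, but flat 2 is part of the mean that flat 1 and flat 3 were compared with. Results that rest on flat 2 are also given without it.

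DLK1 (ENSG00000185559, chromosome 14, 100725705 to 100738224, plus strand, GENCODE 29 on GRCh38) is the locus partner of MEG3. On flat plates it stood at 768, 1769 and 165 CPM in the libraries numbered 1, 2 and 3. Concave plates gave 877, 579.6 and 124 CPM, and convex plates 655, 675 and 51.7 CPM, in the same order. The lowest library of each shape was the one numbered 3, and the 3 of them (51.7 to 165 CPM) lay below every library numbered 1 or 2 (579.6 to 1769 CPM). The mean was 887 ± 444 CPM (SD, n = 6) for numbers 1 and 2 and 113 ± 57.2 CPM (SD, n = 3) for number 3, a ratio of 7.83. Within a shape the ratio was 7.70 on flat, 5.90 on concave and 12.9 on convex plates. In a model with plate shape as a term, the log2 difference of number 3 was -3.03 (SE 0.33), and -2.83 without flat 2.

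MEG3 (ENSG00000214548, chromosome 14, 100779410 to 100861031, plus strand), the maternally expressed long noncoding RNA whose annotated start lies 53.7 kb from that of DLK1, had the same split. Its levels were 13.7, 16.9 and 4.14 CPM on flat plates, 17.2, 13.4 and 3.75 CPM on concave plates and 17.6, 11.3 and 2.20 CPM on convex plates, for numbers 1, 2 and 3. The libraries numbered 3 again lay below the other 6, with no overlap. Numbers 1 and 2 averaged 15.0 ± 2.58 CPM (SD, n = 6) and number 3 averaged 3.36 ± 1.02 CPM (SD, n = 3), a ratio of 4.46. The ratio was 3.70 on flat, 4.08 on concave and 6.55 on convex plates, and the log2 difference in the model was -2.18 (SE 0.22). Among the 3 low libraries, flat 3 was highest, concave 3 next and convex 3 lowest for both genes.

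**Figure D1:**
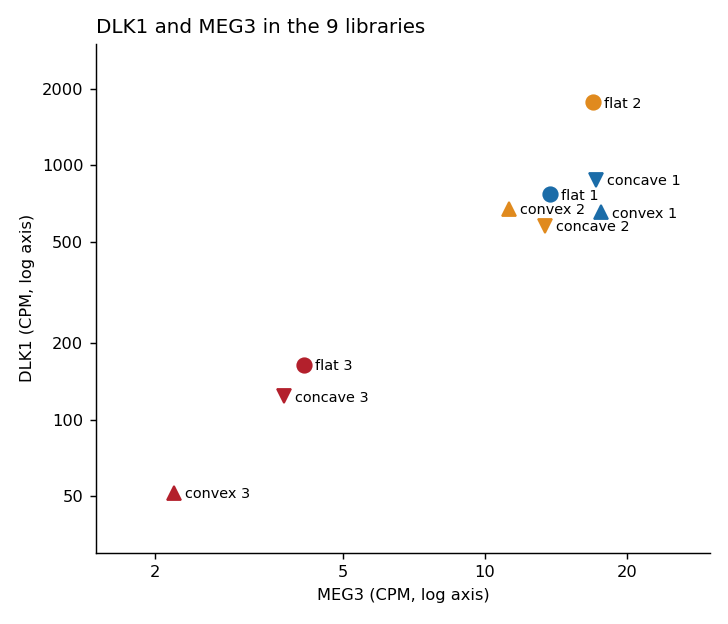
Level of DLK1 (vertical axis, CPM, log axis) against MEG3 (horizontal axis, CPM, log axis) in the 9 libraries, each point 1 library; circles are flat, downward triangles concave and upward triangles convex plates, and blue, orange and red are numbers 1, 2 and 3. The 3 red points lie at 2.20 to 4.14 CPM of MEG3 and 51.7 to 165 CPM of DLK1, below the 6 others in both genes.

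The partners did not keep 1 ratio. For every MEG3 count there were 55.9, 105 and 39.8 DLK1 counts on flat plates, 51.1, 43.3 and 32.9 on concave plates and 37.2, 60.0 and 23.5 on convex plates. The library numbered 3 had the lowest ratio within each shape. Inside the 6 libraries numbered 1 and 2, where DLK1 ranged from 579.6 to 1769 CPM and MEG3 from 11.3 to 17.6 CPM, Pearson's r of their log2 levels was 0.46 (exact permutation test of pairings, two-sided, p = 0.389, adjusted p = 0.444 over 8 relations) and Spearman's rho 0.26 (p = 0.658, adjusted p = 0.658). Without flat 2 and concave 2, the libraries farthest from the median of DLK1, r was 0.31. A joint movement of DLK1 and MEG3 was therefore seen between number 3 and the rest, and was not detectable among the other 6 libraries. No r is given over all 9, which fall into separate clusters.

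The other genes of the domain, which had no part in the choice of DLK1, were tested between number 3 and numbers 1 and 2 with plate shape in the model. The libraries numbered 3 had been set apart in earlier results of these data, and the window of 1 Mb around DLK1 was chosen after values were seen. RTL1 (ENSG00000254656, chromosome 14, 100879753 to 100903722, minus strand), a paternally expressed gene derived from a retrotransposon, stood at 4.64, 9.73 and 0.978 CPM on flat, 5.77, 3.97 and 0.663 CPM on concave and 5.31, 3.91 and 0.211 CPM on convex plates. All 3 libraries numbered 3 lay below the other 6. The means were 5.55 ± 2.17 CPM (SD, n = 6) and 0.617 ± 0.385 CPM (SD, n = 3), and RTL1 fell by 3.26 on the log2 scale (SE 0.40, edgeR adjusted p = 0.00121).

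A group of 3 noncoding RNAs of the domain fell as well. MEG8 (chromosome 14, 100894770 to 101038859), maternally expressed, stood at 1.02 ± 0.267 CPM in numbers 1 and 2 and 0.236 ± 0.128 CPM in number 3 (log2 difference -2.13, edgeR adjusted p = 0.00567). MEG9 (chromosome 14, 101064151 to 101072937), also maternally expressed, stood at 1.51 ± 0.436 and 0.741 ± 0.155 CPM (log2 difference -0.98, edgeR adjusted p = 0.0262). DIO3OS (chromosome 14, 101552221 to 101560431), the antisense partner of DIO3, stood at 0.879 ± 0.487 and 0.174 ± 0.0593 CPM (log2 difference -2.33, edgeR adjusted p = 0.0167). DIO3, which encodes a thyroid hormone deiodinase, stood at 0.486 ± 0.287 and 0.278 ± 0.123 CPM and did not pass (log2 difference -0.67, edgeR adjusted p = 0.397). Without convex 3, RTL1 still passed (adjusted p = 0.0142) while MEG8 (0.0543), MEG9 (0.180) and DIO3OS (0.101) did not. In that fit 4.54% of all genes passed, against 17.2% with all 9 libraries.

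From DLK1 to DIO3, over 835.6 kb, 8 genes had enough counts to test, and 7 of them had a negative difference. Of the 6 that are not members, 4 passed as lower and 1 as higher, ENSG00000230805, a noncoding gene at 0.426 and 0.894 CPM (log2 difference 1.24, edgeR adjusted p = 0.0385); that call was kept in 8 of 16 alternative settings. Over all genes 8.75% passed as lower and 8.47% as higher. In the rest of the window, 13 genes were tested, of which 2 fell and 1 rose, or 23.1% against 17.2% of all genes. BEGAIN (chromosome 14, 100537147 to 100587413), a brain guanylate kinase-associated protein gene 188.6 kb before DLK1, fell from 9.70 ± 1.44 to 4.11 ± 0.573 CPM (log2 difference -1.25, edgeR adjusted p = 0.00291). DEGS2 fell from 0.486 to 0.0955 CPM (log2 difference -2.24, edgeR adjusted p = 0.0141), and WARS1, a tryptophan tRNA synthetase gene, rose by 0.53 (edgeR adjusted p = 0.0161). DEGS2 did not pass in 3 of 16 alternatives and WARS1 in 4 of 17, while BEGAIN passed in all 17. EML1, EVL, YY1, SLC25A29 and WDR25, at 7.32 to 227 CPM in number 3, had differences of -0.23 to 0.29 and did not pass. The genes without a symbol in this part of the window did not pass either. They stood at 0.049 to 0.938 CPM in number 3, with differences of -1.91 to 1.40. Counts of DLK1 per count of RTL1 were 123.2 to 182 in numbers 1 and 2, and 169, 186 and 245 in flat 3, concave 3 and convex 3.

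**Figure D2:**
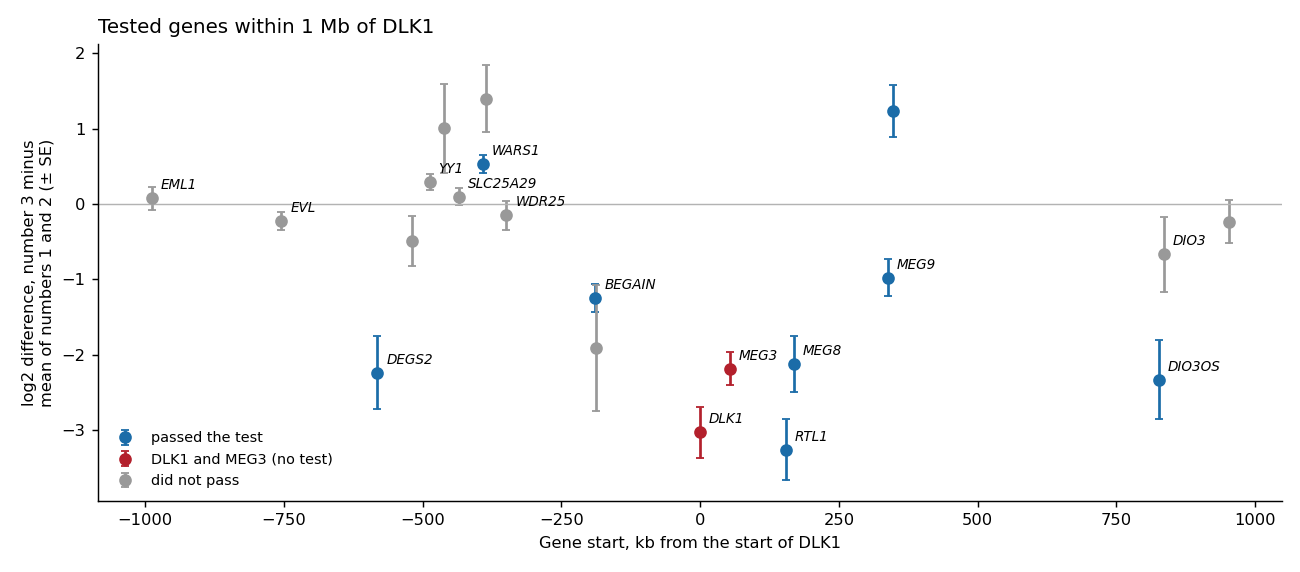
Log2 difference between number 3 and the mean of numbers 1 and 2 (vertical axis, with SE) for the 21 tested genes within 1 Mb of DLK1, by the distance of their start from the start of DLK1 in kb (horizontal axis); blue genes passed edgeR's test, grey genes did not, and the red pair DLK1 and MEG3 was not tested. RTL1, MEG8, MEG9 and DIO3OS lie below 0 with DLK1 and MEG3, while EML1, EVL, YY1, SLC25A29 and WDR25 lie near 0. Grey genes without a symbol are not labelled and run from -1.91 to 1.40.

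MEST was the only other member whose libraries numbered 3 all lay below the rest. MEST (ENSG00000106484, chromosome 7, 130486171 to 130506465, plus strand), a paternally expressed gene of mesoderm and many fetal tissues, stood at 430.0, 566 and 273 CPM on flat plates, 430.2, 420.4 and 300.1 CPM on concave plates and 356, 452 and 191 CPM on convex plates. The means were 443 ± 69.0 CPM (SD, n = 6) and 255 ± 56.8 CPM (SD, n = 3), a ratio of 1.74 against 7.83 for DLK1. The ratio was 1.82 on flat, 1.42 on concave and 2.11 on convex plates.

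PLAGL1 was the one tested member with all libraries numbered 3 above the rest. PLAGL1 (ENSG00000118495, chromosome 6, 143940300 to 144064599, minus strand), a paternally expressed zinc-finger transcription factor that holds back cell division, stood at 1.56, 0.653 and 1.89 CPM on flat, 1.67, 1.63 and 2.46 CPM on concave and 1.501, 1.44 and 4.38 CPM on convex plates. The means were 1.41 ± 0.379 CPM (SD, n = 6) and 2.91 ± 1.31 CPM (SD, n = 3), a ratio of 2.07. Convex 3 was the highest library, and the margin between flat 3 and concave 1 was small, 1.89 against 1.67 CPM.

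PEG10, PEG3, SNRPN, IGF2 and NNAT overlapped between the numbers. PEG10 (ENSG00000242265, chromosome 7, 94656325 to 94669695, plus strand), a paternally expressed gene derived from a retrotransposon, stood at 315, 266 and 412 CPM on flat, 407, 457 and 355 CPM on concave and 440.2, 469.5 and 487 CPM on convex plates. Number 3 differed from the rest by 0.12 log2 units (SE 0.16) in PEG10. PEG3 (ENSG00000198300, chromosome 19, 56810077 to 56840728, minus strand), a paternally expressed zinc-finger gene, stood at 34.7, 4.38 and 86.4 CPM on flat, 74.5, 97.9 and 44.6 CPM on concave and 91.4, 87.4 and 91.4 CPM on convex plates. The low value of PEG3 was that of flat 2, where DLK1 was highest; the difference by number was 0.61 (SE 0.68) with flat 2 and -0.02 without it.

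SNRPN (ENSG00000128739, chromosome 15, 24823637 to 24978723, plus strand), a splicing protein gene of the Prader-Willi region, lay between 28.2 and 33.8 CPM in number 3 and between 30.6 and 53.6 CPM in the other libraries. Its highest library was flat 2, and its difference by number was -0.18 with flat 2 and -0.08 without it. IGF2 (ENSG00000167244, chromosome 11, 2129112 to 2149603, minus strand), a fetal growth factor, lay between 12.1 and 15.8 CPM in number 3 and between 11.8 and 23.3 CPM in the others. NNAT (ENSG00000053438, chromosome 20, 37521206 to 37523693, plus strand), a small membrane protein of developing neurons, lay between 1.76 and 3.64 CPM in number 3 and between 0.190 and 2.21 CPM in the others, with its lowest value in flat 2 and a difference of 0.80 with that library and 0.49 without it. H19 (ENSG00000130600, chromosome 11, 1995176 to 2001470, minus strand), the maternally expressed noncoding RNA next to IGF2, had 0 to 2 counts in every library, under the level of 3 counts that a count of 0 allows (0.0438 to 0.0631 CPM), and did not enter the tests.

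**Figure D3:**
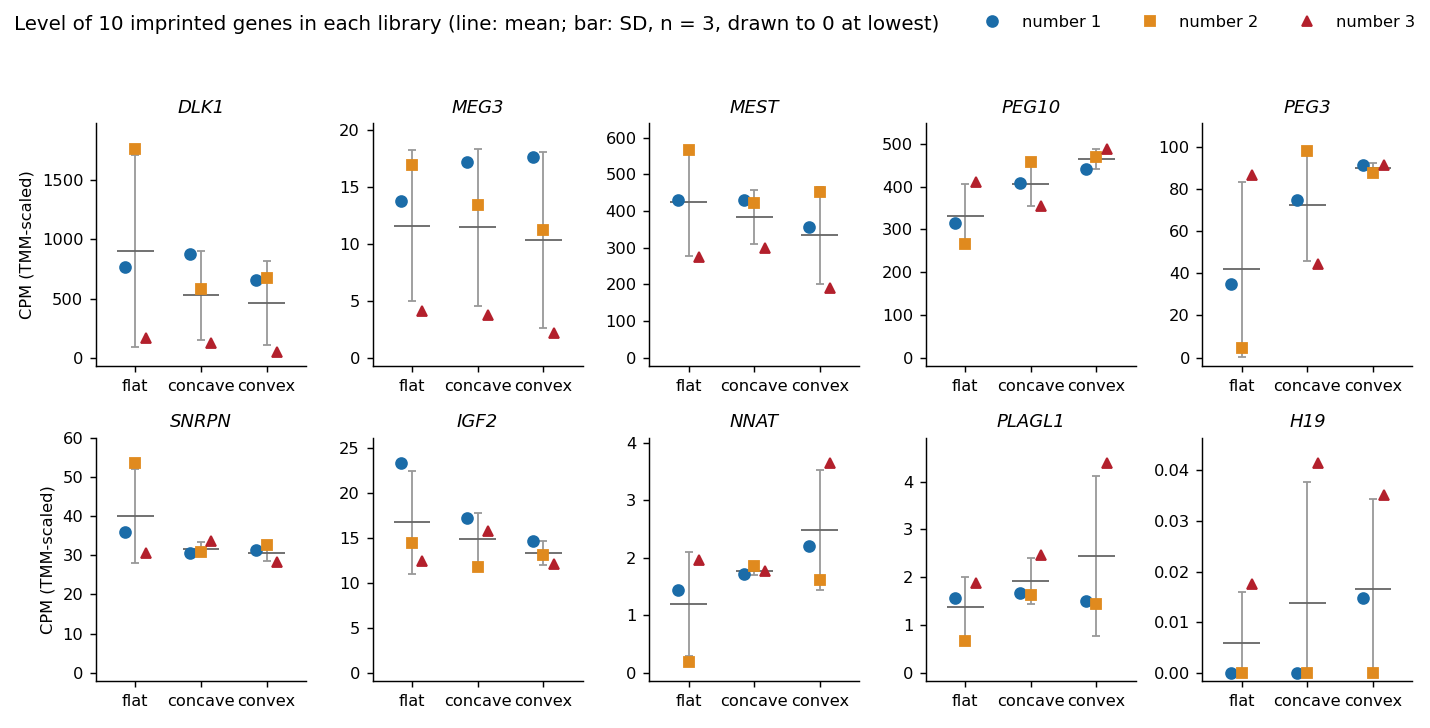
TMM-scaled CPM (vertical axes, each including 0) of the 10 imprinted genes in each library by plate shape (horizontal axes); blue circles, orange squares and red triangles are numbers 1, 2 and 3, and the line and bar are the mean and SD of 3 libraries, with bars ending at 0 at the lowest. The red triangles are lowest in each shape for DLK1, MEG3 and MEST and highest in each shape for PLAGL1, while flat 2 is the lowest library of PEG3 and NNAT.

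Of the 9 members with enough counts, then, 3 had every library numbered 3 below the other 6, 1 had them above and 5 overlapped. Over all 23980 genes tested the shares were 12.2% below and 11.4% above. DLK1 was chosen on this very contrast, so nothing is read from the count of members. Members whose exons share bases with another annotated gene are less certain, since how the counting split such reads is not given in the sources used here. In GENCODE 29, 73.7% of the exon bases of IGF2 also belonged to ENSG00000284779 on the same strand, which had 0 counts. SNRPN shared 23.8% with SNURF, and PEG3 shared 12.9% with ZIM2.

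Levels per kb of median transcript length, the only scale on which the genes are compared with each other, ran from 454 CPM per kb for DLK1 (median of 9 libraries) to 0 for H19. MEST followed at 176, PEG10 at 64.4, SNRPN at 18.6, MEG3 at 10.9, PEG3 at 10.8, IGF2 at 4.72, NNAT at 1.59 and PLAGL1 at 0.507 CPM per kb. The ranges over libraries overlapped between the neighbours DLK1 and MEST, MEG3 and PEG3, PEG3 and IGF2, and NNAT and PLAGL1, and did not overlap between MEST and PEG10, PEG10 and SNRPN, SNRPN and MEG3, or IGF2 and NNAT. At its lowest, in convex 3, DLK1 stood at 35.9 CPM per kb, under the lowest values of MEST (79.8) and PEG10 (41.6). MEG3 fell to the eighth place when all annotated exon bases (23224) were used in place of its median transcript (1232 bases).

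The plate shapes, the comparison the study was designed for, were tested on all 10 genes except H19. None of the 9 passed in any of the 3 comparisons. DLK1 averaged 901 ± 810 CPM on flat, 527 ± 379.6 CPM on concave and 461 ± 354 CPM on convex plates (SD, n = 3 each), and the groups overlapped widely. Its log2 difference was -0.77 for concave against flat (SE 0.98, edgeR adjusted p = 0.897) and -0.97 for convex against flat (SE 0.99, adjusted p = 0.699). Without flat 2 these were 0.18 and -0.02. MEG3 averaged 11.6 ± 6.65, 11.4 ± 6.92 and 10.3 ± 7.73 CPM, with differences of -0.02 and -0.16 from flat (SE 0.74 each, edgeR adjusted p = 0.997 and 0.942); the first changed sign under scaling by library size alone (0.07), and both were positive without flat 2 (0.36 and 0.21).

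PEG10 had the smallest p of the members in the model of plate shape alone; once the replicate number was added it was DLK1 (convex against flat, unadjusted p = 0.00818, edgeR adjusted p = 0.268). PEG10 averaged 331 ± 74.1 CPM on flat, 406 ± 51.2 CPM on concave and 466 ± 23.6 CPM on convex plates, and all 3 convex libraries (440.2 to 487 CPM) lay above the 3 flat ones (266 to 412 CPM). The convex difference was 0.49 (SE 0.19), with an unadjusted p of 0.0239 and an edgeR adjusted p of 0.513. PEG3 averaged 41.8 ± 41.5, 72.4 ± 26.7 and 90.1 ± 2.32 CPM; its differences of 0.79 and 1.11 became 0.26 and 0.57 without flat 2, and neither passed (edgeR adjusted p = 0.855 and 0.562).

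Across the members the edgeR adjusted p was 0.841 to 0.997 for concave against flat, 0.513 to 0.942 for convex against flat and 1.00 for each gene in concave against convex. At an unadjusted p under 0.05 the counts of members were 0, 1 and 0 (0, 4 and 0 with the replicate block, the 4 being DLK1, PEG10, NNAT and PLAGL1), and DESeq2 and limma voom called 0 members in each. Of 23075 genes tested, 0.0% passed in each of these 3 comparisons, with 1047, 2135 and 65 genes at an unadjusted p under 0.05; DESeq2 called 0, 1 and 0 genes and limma voom 0 in each. With the replicate block 2142, 4321 and 153 of 23980 genes were under 0.05 unadjusted. The median log2 difference of the 9 members was -0.02, -0.16 and 0.05, against 0.01, 0.01 and -0.00 over all genes. Between numbers 2 and 1 no member passed either (edgeR adjusted p from 0.570 to 0.984), with 0.00417% of 23980 genes called (1 gene; DESeq2 called 156 and limma voom 0, and edgeR without the filter on low counts 108); at an unadjusted p under 0.05 there was 1 member, IGF2, lower in number 2 (log2 difference -0.47, SE 0.18). In that comparison 2011 of 23980 genes were under 0.05 unadjusted.

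**Figure D4:**
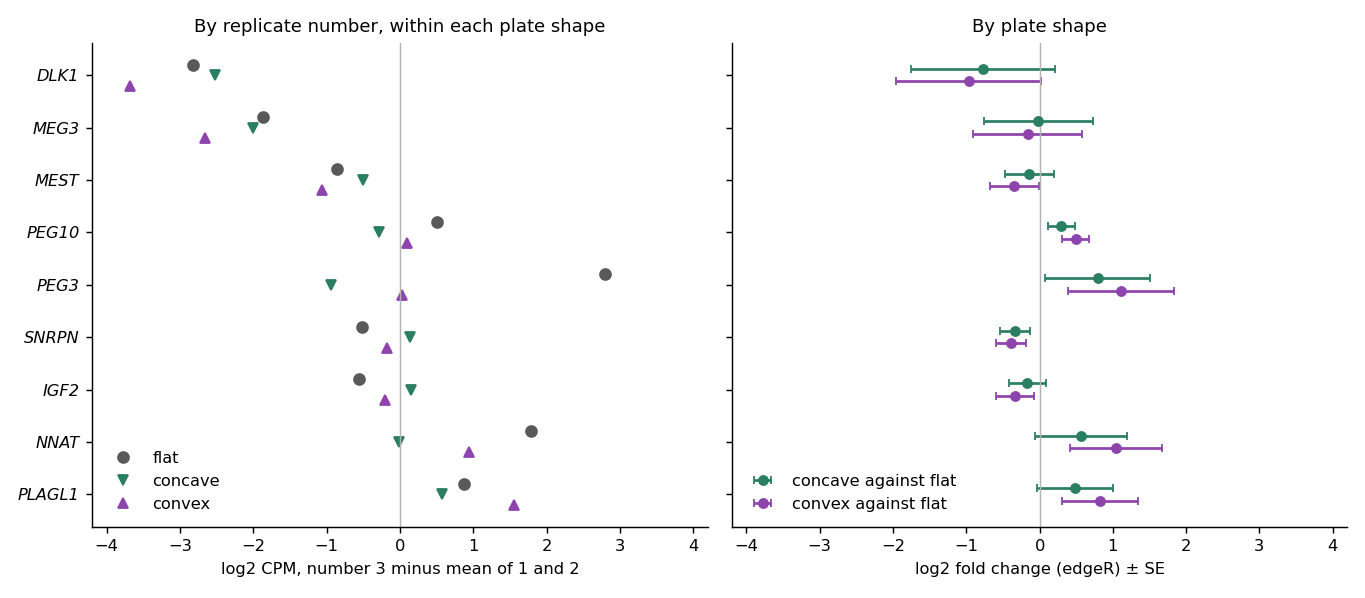
Log2 differences of the 9 members with enough counts: on the left number 3 minus the mean of numbers 1 and 2 within each plate shape (1 point a shape, no error since each is from 3 libraries), on the right concave and convex plates against flat with the SE from edgeR. DLK1, MEG3 and MEST lie below 0 on the left in all 3 shapes, and no gene on the right passed the test.

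Beyond the members, 65 other imprinted genes were listed, 62 were matched and 51 had enough counts. Between number 3 and the rest 13 of them passed edgeR's test, or 25.5% against 17.2% of all genes: 6 higher and 7 lower. The domain from DLK1 to DIO3 gave 4 of the 7 lower genes, out of 5 tested. At other places in the genome 9 of 46 passed, or 19.6%, with 6 higher and 3 lower. The median log2 difference of the 51 genes was 0.09, against 0.01 over all genes. Leaving out convex 3 took the count from 13 to 5 and leaving out concave 1 took it to 8. The share of all genes that passed fell in the same fits, from 17.2% to 4.54% and to 8.59%.

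The 3 lower genes outside chromosome 14 were CDKN1C, MAGEL2 and MIMT1. CDKN1C (chromosome 11, 2883213 to 2885773), a maternally expressed inhibitor of the cell cycle, fell from 64.1 ± 28.6 to 27.6 ± 2.00 CPM (log2 difference -1.13, edgeR adjusted p = 0.0194), and in 4 of 17 alternatives it did not pass. MAGEL2 (chromosome 15, 23643549 to 23647867), a paternally expressed gene of the Prader-Willi region, fell from 6.25 ± 0.610 to 3.24 ± 0.209 CPM (log2 difference -0.94, edgeR adjusted p = 0.00454) and passed in all 17. MIMT1 (chromosome 19, 56840902 to 56848556), a noncoding neighbour of PEG3, fell from 1.61 ± 0.451 to 0.561 ± 0.0194 CPM (log2 difference -1.48, edgeR adjusted p = 0.00923).

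Higher in number 3 were ANO1, SLC22A3, SLC22A2, TFPI2, PHLDA2 and ATP10A. ANO1 (chromosome 11, 70078302 to 70189528), a calcium-activated chloride channel, stood at 1.58 to 5.43 CPM in numbers 1 and 2 and at 24.3 to 28.4 CPM in number 3 (log2 difference 2.90, edgeR adjusted p = 0.000210). SLC22A3 and SLC22A2, organic cation transporters next to IGF2R on chromosome 6, rose by 1.66 (1.91 to 5.94 CPM) and 2.04 (0.303 to 1.20 CPM), with edgeR adjusted p of 0.000974 and 0.00267. TFPI2, a protease inhibitor, rose by 1.26, PHLDA2, which limits placental growth, by 1.03, and ATP10A, a lipid flippase, by 0.55 (edgeR adjusted p = 0.00555, 0.0239 and 0.0382). ANO1, SLC22A3, SLC22A2, RTL1 and MAGEL2 passed under all 17 alternatives, PHLDA2 under 12 and ATP10A under 7. TFPI2 and MIMT1 passed under all but 1, the fit without convex 3 (adjusted p = 0.0631 and 0.0514).

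Several genes that overlap or adjoin a member did not pass between number 3 and the rest. SNHG14, the long host transcript beyond SNRPN, stood at 721 ± 226 and 958 ± 206 CPM (log2 difference 0.48, edgeR adjusted p = 0.194). SGCE, which shares a promoter region with PEG10, stood at 48.4 ± 3.85 and 45.2 ± 5.06 CPM (log2 difference -0.10, adjusted p = 0.577), and BLCAP, which contains NNAT, at 89.5 ± 11.9 and 105 ± 15.6 CPM (0.24, adjusted p = 0.237). IGF2R, GRB10 and GNAS, imprinted genes at 93.2 to 1018 CPM in numbers 1 and 2 that were picked after their values were seen, had differences of 0.28, 0.04 and -0.11 and did not pass (edgeR adjusted p = 0.318, 0.853 and 0.615). In the 3 comparisons of plate shape 0 of the 51 genes passed edgeR's test.

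**Figure D5:**
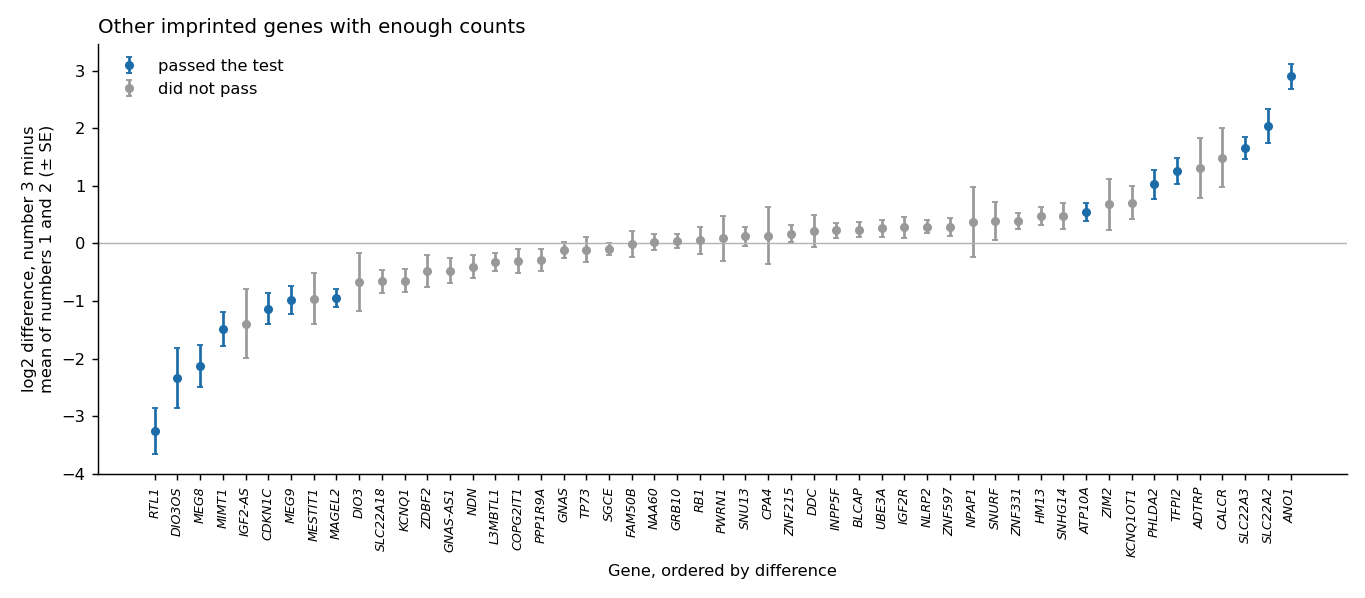
Log2 difference between number 3 and the mean of numbers 1 and 2 (vertical axis, with SE from edgeR) for the 51 other imprinted genes with enough counts, ordered by difference (horizontal axis); blue genes passed the test and grey genes did not. RTL1, DIO3OS and MEG8 of the DLK1 domain lie at the low end, ANO1 and SLC22A2 at the high end, and 38 genes did not pass.

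Proteins that keep imprints through early development gave 3 higher and 0 lower of 19 tested, or 15.8%, near the 17.2% of all genes. DNMT3B, a de novo DNA methyltransferase, rose from 855 ± 163 to 1277 ± 74.9 CPM (log2 difference 0.60, edgeR adjusted p = 0.0429). ZNF202 rose by 0.61 (44.7 to 67.7 CPM, edgeR adjusted p = 0.0145), and ZFP57, a zinc-finger protein that guards methylated imprints, by 1.77 at a low level (0.141 to 0.486 CPM, edgeR adjusted p = 0.0229). CTCF, which binds several imprinting control regions, differed by 0.35 and did not pass (edgeR adjusted p = 0.0736). The maintenance methyltransferase DNMT1 (0.31), TRIM28 (0.25) and ZNF445 (-0.02) did not pass either (edgeR adjusted p = 0.235, 0.290 and 0.935).

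Among 23 tested Notch pathway genes, the pathway to which DLK1 is related, 1 rose and 3 fell, or 17.4% against 17.2% of all genes. Of the target genes, HEYL fell from 8.50 ± 1.90 to 2.45 ± 0.564 CPM (log2 difference -1.79, edgeR adjusted p = 0.000286) and HEY2 rose from 0.441 to 1.37 CPM (1.67, adjusted p = 0.00742). MFNG, a glycosyltransferase that modifies Notch, fell from 14 ± 4.54 to 2.79 ± 1.04 CPM (-2.33, edgeR adjusted p = 0.000326), and the ligand DLL3 from 6.02 ± 1.61 to 3.34 ± 0.734 CPM (-0.84, adjusted p = 0.0162). The targets HES1, HES4, HEY1 and NRARP did not pass (edgeR adjusted p = 0.0998, 0.599, 0.506 and 0.196). Receptors NOTCH1, NOTCH2, NOTCH3 and NOTCH4 did not pass (differences of -0.54 to 0.38).

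The insulin-like growth factor axis, in which IGF2 is the imprinted ligand, gave 5 higher and 1 lower of 22 tested, or 27.3%, where 17.2% of all genes passed (8.47% higher and 8.75% lower). INSR, the insulin receptor, rose by 0.55 (68.9 to 101 CPM, edgeR adjusted p = 0.00794), and the binding proteins IGFBP3 (67.2 to 128 CPM) and IGFBP7 (0.137 to 0.507 CPM) rose by 0.90 and 1.90 (adjusted p = 0.00875 and 0.0125). PAPPA2, a protease that cleaves such binding proteins, fell by 0.99 on the log2 scale (9.42 to 4.67 CPM, edgeR adjusted p = 0.00830), whereas the related protease PAPPA rose by 1.26 (4.54 to 9.98 CPM, adjusted p = 0.0279). STC2, an inhibitor of these proteases, rose by 0.80 (26.5 to 44.8 CPM, edgeR adjusted p = 0.0199). No gene of the IGF, Notch or imprint-keeping lists passed in a comparison of plate shapes.

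Among the genes ranked, the 5 below had the pattern most like that of DLK1 over the 9 libraries. The measure was the root mean square difference of their centred log2 CPM. The ranking held 11955 genes, those with a mean of at least 5 CPM and the tested members at any level. NNAT (1.82 CPM) and PLAGL1 (1.91 CPM) were in it as members only. The 5 most like DLK1 were ARHGAP15 (0.27), ENSG00000239922 (0.28), PAX2 (0.40), MFNG (0.47) and LMO1 (0.48), on chromosomes 2, 3, 10, 22 and 11. PAX2, a transcription factor, stood at 38.8 ± 20.9 CPM in numbers 1 and 2 and 3.11 ± 1.502 CPM in number 3, with 80.1 CPM in flat 2; each of the 5, like DLK1, stood in flat 2 above its mean of numbers 1 and 2. MEG3 ranked 8th (0.58), MEST 345th, SNRPN 2280th, IGF2 3240th, PEG10 8632nd and PEG3 11898th (2.49). Without flat 2, 3 of the 5 were shared, and with a minimum of 1 CPM, 2. RTL1, at a mean of 3.908 CPM over the 9 libraries, lay under the minimum of 5 CPM and was not ranked. MEG8, MEG9 and DIO3OS lay under it as well. The list of 5 therefore leaves out RTL1, next to MEG3 in the domain, although RTL1 followed DLK1 closely. Counts of DLK1 per count of RTL1 ran from 123.2 (convex 1) to 245 (convex 3). DLK1 itself ran from 51.7 CPM (convex 3) to 1769 CPM (flat 2). The place of RTL1 in a ranking with a minimum of 1 CPM is not given here, so the genes named need not be closer to DLK1 than RTL1.

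Inside the 6 libraries numbered 1 and 2, none of the 8 members correlated with DLK1 passed after adjustment. PEG3 had r = -0.95 (exact permutation test, two-sided, p = 0.0347, adjusted p = 0.0963) and rho = -0.94 (p = 0.0167, adjusted p = 0.133). Without flat 2 and concave 2 its r was -0.38. NNAT went from -0.95 to -0.45, PEG10 from -0.85 to -0.46, MEST from 0.84 to 0.44, SNRPN from 0.92 to -0.08 and PLAGL1 from -0.91 to 0.93. Only flat 1, concave 1, convex 1 and convex 2 were left, with DLK1 at 655 to 877 CPM. Over so few libraries and so narrow a range r can swing, so nothing is read from these shifts. IGF2 had r = 0.13 (exact p = 0.767).

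Markers of cell types moved with number 3 as well, and their part in the results above was not tested. Over all genes tested, 17.2% passed in this contrast, 8.47% higher and 8.75% lower. Of the early neuroectoderm markers tested 66.7% passed, and of the pluripotency markers 72.7%. The shares were 60.0% for non-neural ectoderm and amnion markers and 69.2% for mesoderm, endoderm and fibroblast markers. Of 15 early neuroectoderm markers tested, 10 were lower and none higher (SIX3 at 154 ± 36.2 and 33.8 ± 10.2 CPM, edgeR adjusted p = 0.000806), and the sum of the 16 listed ran from 2436 to 2899 CPM in number 3 and from 2901 to 3679 CPM in the others. Of 11 pluripotency markers 8 were higher and none lower (TDGF1 at 2.70 ± 1.46 and 159.5 ± 34.9 CPM, edgeR adjusted p = 4.95e-05), with summed levels of 4886 to 4979 against 3109 to 3474 CPM. Non-neural ectoderm and amnion markers gave 6 higher of 10 (sums 973 to 1124 against 493 to 903 CPM, EPCAM among them). Mesoderm, endoderm and fibroblast markers gave 6 higher and 3 lower of 13 (sums 1257 to 1728 against 809 to 1485 CPM). No marker of these lists was at 0 in all 9 libraries. In bulk RNA, fewer cells of a type and less RNA per cell cannot be told apart.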

How the data were processed

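RNA from 9 H9 libraries (flat, concave and convex plates, 3 of each) was sequenced as stranded poly-A libraries, per the labels' protocols. The authors deposited raw counts per Ensembl gene. The submitters' processing notes name HISAT2, featureCounts and GRCh38; which versions, gene annotation and strand option were used is not given in the sources used here. Of 62710 genes, 62639 were matched to a symbol and 58274 to GENCODE 29, which gave coordinates. Members and gene lists were chosen with earlier results of these data known.

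Counts were tested with edgeR 4.0.16 (R 4.3.3): TMM factors, filterByExpr, quasi-likelihood test, Benjamini-Hochberg adjustment over all genes, threshold 0.05. Plate shapes were compared in a model with 1 coefficient per shape over all 9 libraries (23075 genes), and replicate numbers in a model with shape and number (23980 genes). Levels are CPM, and log2 levels used a prior count of 2. H19 did not pass the filter and has counts only; with it left out, 8 correlations with DLK1 were computed in place of 9. A library's depth gives a floor of 3 counts; intervals and floors cover counting error only. All 10 members are named, with other imprinted genes that passed (up to 10 a direction), genes of the DLK1 cluster or overlapping a member, up to 4 genes of each other list by p, and the 5 genes most like DLK1; neighbours of DLK1 and other genes outside these rules (such as DNMT1, TRIM28, ZNF445 and the NOTCH receptors) were chosen after their values were seen. Alternatives were 3 other scalings, 2 other filters, DESeq2 1.42.0, limma voom 3.58.1, other model terms and each library left out.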

Additional observations from a re-analysis of the deposited data

How the results depend on the processing

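No member passed in a comparison of plate shapes, or of number 2 with number 1, under any alternative run. The count of other imprinted genes that passed between number 3 and the rest was 13. It was 12 to 17 under the other scalings, filters, tools and model terms, and 5 to 19 when 1 library was left out: 5 without convex 3 and 8 without concave 1. The share of all genes that passed ran from 11.1% to 22.6% and from 4.54% to 23.5% in the same fits, respectively. Member differences kept their sign in 153 of 162 recomputed values for concave plates and 160 of 162 for convex plates, each against flat, in 155 of 162 between the curved shapes, in 145 of 153 for number 2 against 1 and in 150 of 153 for number 3. For number 3 the log2 difference ran from -3.31 to -2.74 for DLK1, from -2.36 to -1.96 for MEG3, from -0.99 to -0.68 for MEST and from 0.70 to 1.20 for PLAGL1; PEG10 (-0.11 without flat 3) and PEG3 (-0.51 without flat 3, -0.02 without flat 2) changed sign. Levels near 1 CPM, such as those of MEG8 and DIO3OS, rest on 6 to 94 counts a library.

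The replicate number was also fitted as a block. Libraries that share a number deviated together with r from 0.02 (flat 2 and concave 2) to 0.62 (flat 3 and convex 3), so by this measure the numbers do not pair all libraries. With the block 0 members passed in each comparison of shapes; DLK1 then had a convex difference of -1.12 (SE 0.33, edgeR adjusted p = 0.268). Within numbers 1, 2 and 3 its convex minus flat difference was -0.23, -1.39 and -1.67 in log2 CPM. Without flat 2 the model of plate shape alone gave -0.02, and the block was not fitted. At an unadjusted p under 0.05 the block gave 4 members for convex against flat and 0 in the other comparisons of shape. It called 1, 1 and 0 of all genes.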
